A study of Mus musculus with 2 samples.

Results

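The genes described here are 10 genes through which corticosteroids act on, or are handled by, the gut: the glucocorticoid-induced genes Fkbp5, Tsc22d3, Zbtb16, Sgk1 and Pdk4, the enzymes Hsd11b1 and Hsd11b2, and the subunit genes Scnn1a, Scnn1b and Scnn1g of the epithelial sodium channel (ENaC). They were picked by symbol from the 23358 genes of the table, and all 10 were listed. RNA came from the ileum, the distal end of the small intestine, of BALB/c mice aged 21 days. Mice of group E received castor oil and then ellagic acid (EA), a plant polyphenol, and mice of group D received castor oil and then saline. Both groups were given 0.1 ml of saline by intraperitoneal injection and 0.2 ml of castor oil by mouth, a laxative that causes diarrhea, followed after 0.5 h by 0.3 ml of EA at 10 mg/ml in group E or 0.3 ml of saline in group D, over 3 days. Since both groups had castor oil, the comparison is of EA with saline in mice given castor oil. No group without castor oil was analysed here. The study reported diarrhea in fewer mice of group E than of group D, so EA and the state of diarrhea cannot be told apart.

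Glucocorticoids bind the glucocorticoid receptor (Nr3c1), which moves to the nucleus and switches genes on through short palindromic elements in DNA. The mineralocorticoid receptor (Nr3c2) binds aldosterone and glucocorticoids alike, and 11-beta-hydroxysteroid dehydrogenase type 2 (Hsd11b2) inactivates glucocorticoids in aldosterone target cells while type 1 (Hsd11b1) regenerates them. In the distal colon and the kidney, aldosterone raises sodium uptake through ENaC, partly by way of the kinase Sgk1, whereas the small intestine takes up sodium mostly through the exchanger Slc9a3 and cotransporters.

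Levels are in FPKM (fragments per kilobase of transcript, scaled to the mapped total), with 1 value for a gene in each group, into which the authors joined 2 libraries. There are thus no replicates, no SD and no test in what follows, and a difference has no replicate check. A gene's change is the log2 ratio of its group E level to its group D level. Counts cover the 12694 genes that averaged 1 FPKM or more over the groups and were at 0 in neither, and a gene was counted as higher or lower when it passed 2-fold. By this rule 1.59% of the genes were higher and 1.31% were lower in group E, and the median change of all of them was 0.01. The table gives no read counts for a gene, so the counting error of a value could not be computed. Actb was listed at 4745 FPKM in group E and 4630 FPKM in group D, but Gapdh, which every cell uses, was listed at 2.98 FPKM in group E and 0.120 FPKM in group D, so a value near 0 can be a failed estimate. All 8 enterocyte markers and all 5 ileum markers were well expressed in both groups and none passed 2-fold (the bile acid binding protein Fabp6 was at 3846 FPKM in group E and 5698 FPKM in group D). Of 7 distal colon markers listed, 2 were counted, and Car1, Hoxb13 and Aqp8 were at 0 in both groups.

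A full match to the hormone's DNA element was found in a promoter window of 1 member, Sgk1. Of 6 Sgk1 start sites in the RefSeq promoter table (GRCm38.p6, windows of 250 bases before to 50 after a start), 1 held the full 15-base palindrome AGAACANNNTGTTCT, the consensus of the glucocorticoid response element, on chromosome 10 from 21993701 to 21993715. It lay 189 bases before the start of the transcript Sgk1-202 at 21993890 and 965 bases before the last annotated start at 21994666. No Sgk1 exon overlapped it, and it fell inside introns of 5 longer transcripts. It is shown because Sgk1 had the highest level of the 10 genes. The stretch is 120 bases of the plus strand at chr10:21993656-21993775, with the palindrome in capitals.
Sgk1 element: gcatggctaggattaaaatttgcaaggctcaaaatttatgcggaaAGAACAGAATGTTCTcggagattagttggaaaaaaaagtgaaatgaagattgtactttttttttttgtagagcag
Of all 32851 promoter windows in that table, 3 held the full palindrome (0.00913%), as did 1 of the 14 windows of the 7 members matched (Fkbp5, Tsc22d3, Sgk1, Pdk4, Hsd11b1, Scnn1b and Scnn1g) and 0 of 29 windows of 23 other glucocorticoid-induced genes. One arm, AGAACA on either strand, stood in 19% of all windows, in 4 of the 14 member windows (28.6%) and in 4 of the 29 others (13.8%). These are counts of windows and not of genes. The member windows with an arm were all of Sgk1, which has 6 of the 14, or of Tsc22d3, and the Sgk1 window with the full palindrome is among them. Overlapping windows of a gene were counted separately among the others too. No difference between the sets is read from these shares. Zbtb16, Hsd11b2 and Scnn1a were not matched. A match is only a match of letters, and no binding was measured.

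The ENaC subunits share another short sequence, the PY motif near the end of each protein, which the ubiquitin ligase Nedd4l grips to remove the channel from the cell surface and which Sgk1 counteracts by phosphorylating Nedd4l. Its 5 codons (3 prolines, a variable residue and a tyrosine) are shown in capitals with flanking codons, to set beside the unequal levels of the 3 genes described further on. All 3 stretches are of the plus strand of GRCm38 in the last coding exon of the GENCODE release M21 models, at chr6:125343978-125344022 (Scnn1a, exon 12 of 12), chr7:121917967-121918011 (Scnn1b, exon 13 of 13) and chr7:121767451-121767495 (Scnn1g, exon 13 of 13).
Scnn1a: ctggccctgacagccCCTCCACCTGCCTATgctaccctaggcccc
Scnn1b: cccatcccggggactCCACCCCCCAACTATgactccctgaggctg
Scnn1g: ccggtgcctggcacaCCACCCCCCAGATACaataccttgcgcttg
Scnn1b and Scnn1g were the closest pair, with 29 of 45 bases the same, 12 of them among the 15 of the motif. Scnn1a shared 22 bases with Scnn1b and 20 with Scnn1g.

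Of the 5 glucocorticoid-induced members, Fkbp5, Tsc22d3 and Sgk1 differed by less than 1.2-fold between the groups, while in group E the level of Pdk4 was 1.44-fold lower and that of Zbtb16 2.22-fold lower. Of the 10 genes, 8 were high enough to be counted. None was more than 2-fold higher and 1, Zbtb16, was more than 2-fold lower in group E, against 1.59% and 1.31% of all genes counted. Of the 8, 5 had a higher and 3 a lower value in group E, their median change was 0.06, and 5 lay within 1.2-fold, as did 61.4% of all genes counted. Past 1.5-fold in either direction lay 1 of the 8, against 10.2% of all genes. The plot of levels gives both values of each gene.

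**Figure D1:**
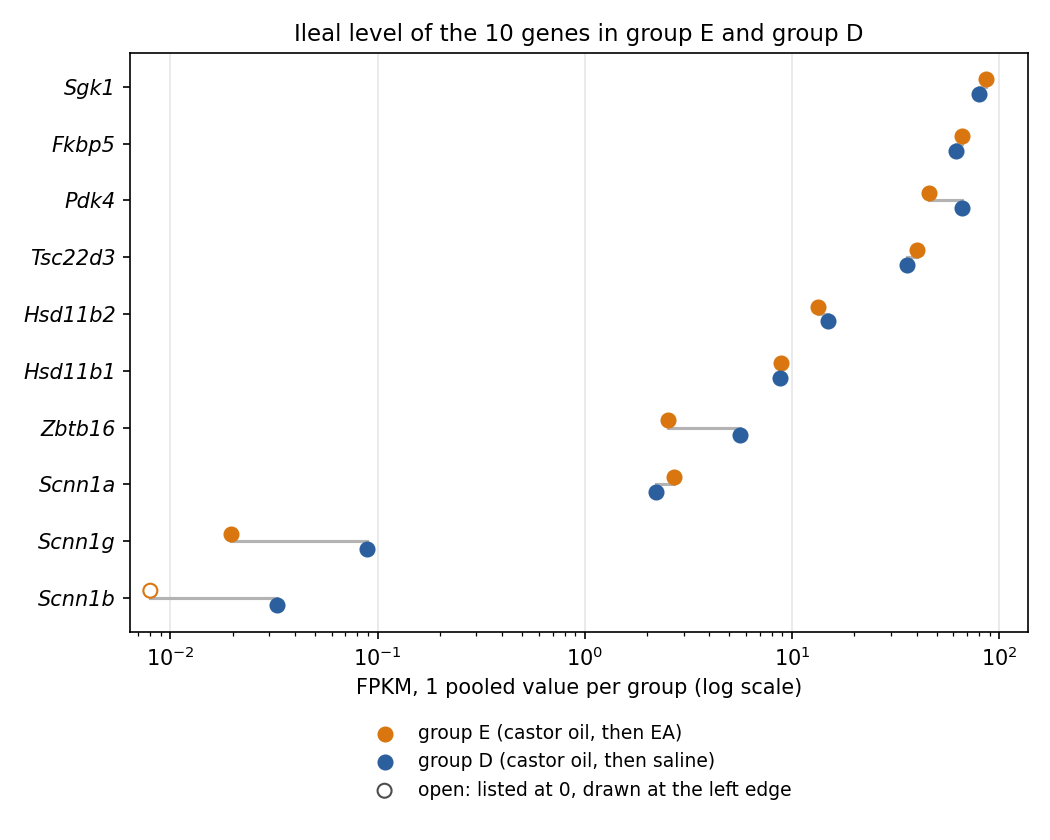
Levels of the 10 genes in FPKM on a log axis, with 1 pooled value per group and no error bar. Orange points are group E and blue points group D, and the open point marks Scnn1b, listed at 0 in group E. Sgk1 was highest at 86.3 FPKM in group E and 80.1 FPKM in group D, and the widest gap among genes above 1 FPKM was that of Zbtb16.

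Fkbp5, the co-chaperone that lowers the receptor's affinity for hormone and is a standard readout of receptor activity, was listed at 66.5 FPKM in group E and 61.9 FPKM in group D, a change of 0.10 (chromosome 17, 28399095 to 28486112). Tsc22d3, which encodes the leucine zipper protein GILZ that curbs inflammatory transcription factors, was at 40.1 FPKM in group E and 36.1 FPKM in group D, a change of 0.15 (chromosome X, 140539529 to 140600522). Sgk1, the kinase induced by both corticosteroid receptors, was at 86.3 FPKM in group E and 80.1 FPKM in group D, a change of 0.11 (chromosome 10, 21882184 to 21999902). These 3 genes were thus slightly higher in group E and each was within 1.2-fold. Of all genes counted, 62.8%, 68.4% and 63.4% had a lower change than Fkbp5, Tsc22d3 and Sgk1, so their changes were near the middle of the table. Their direction turned when every value was scaled to the sum of all FPKM, which lowered every change by 0.36 and moved the median of all genes to −0.35. Fkbp5 was then at −0.26, Tsc22d3 at −0.21 and Sgk1 at −0.25. Because the same amount is taken from every gene, their place against that median cannot change under this scaling.

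Zbtb16, the zinc finger protein PLZF, is induced by glucocorticoids in several tissues and is the transcription factor of NKT cells and other innate-like lymphocytes. It was listed at 2.54 FPKM in group E and 5.64 FPKM in group D, 2.22-fold lower, a change of −1.15 (chromosome 9, 48654297 to 48835945). Of the 4020 genes within 2-fold of its mean, 97.9% changed less in either direction. Its level is low, and genes at low levels varied more. Among the 3714 genes with a mean of 1 to 5 FPKM, 3.34% were more than 2-fold lower, and the median size of change was 0.26, against 0.18 both at 5 to 20 FPKM and above. With a pseudocount of 1 FPKM added to both values its change was −0.91, which no longer passed 2-fold.

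Markers of T and innate-like lymphocytes were examined beside Zbtb16. Of 10 listed, 8 were high enough to be counted, of which 3 had a higher and 5 a lower value in group E. Only Cd2, an adhesion receptor of T and NK cells, passed 2-fold, with 1.69 FPKM in group E and 3.63 FPKM in group D. The NK and NKT marker Klrb1c was under 1 FPKM in both groups (0.0224 FPKM in group E and 0.152 FPKM in group D), and the summed level of the list was 67.4 FPKM in group E and 73.3 FPKM in group D. Of 5 B cell markers, 1 was more than 2-fold higher and 3 were more than 2-fold lower, with a summed level of 27.8 FPKM in group E and 39.4 FPKM in group D. The part of these cells in the difference of Zbtb16 was not tested. In whole ileum, fewer cells of a type and less RNA per cell cannot be told apart.

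**Figure D2:**
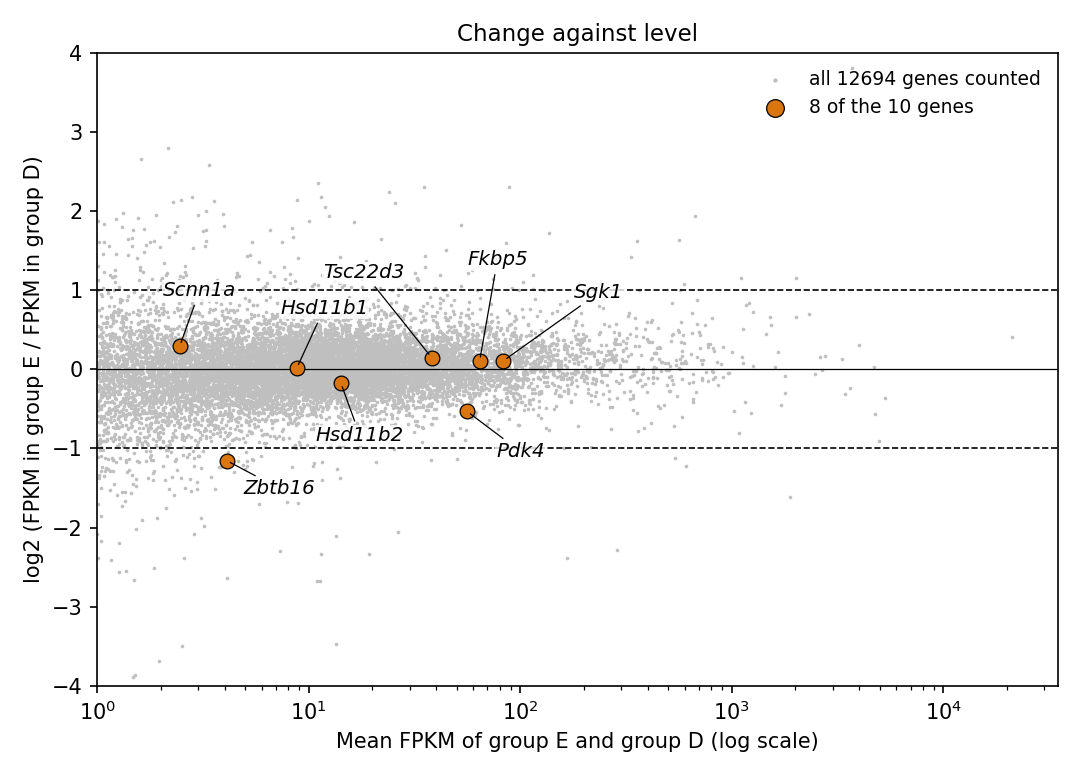
Change between groups (log2 ratio of group E to group D) against mean level in FPKM on a log axis, for the 12694 genes counted in grey and 8 of the 10 genes in orange. Dashed lines mark 2-fold, and 25 genes beyond a change of 4 in size are not drawn. Zbtb16, at −1.15, is the only labelled gene beyond a dashed line, and Pdk4 at −0.53 lies next.

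Pdk4, the kinase that shuts pyruvate dehydrogenase and so spares glucose, is switched on by glucocorticoids, by fasting and by PPAR-alpha. It was listed at 45.8 FPKM in group E and 66.2 FPKM in group D, 1.44-fold lower and short of 2-fold, a change of −0.53 (chromosome 6, 5483351 to 5496278). Of the 2155 genes within 2-fold of its mean, 92.4% changed less in either direction. It was the highest of the 4 kinases of this family in both groups, but took 47.2% of their summed level in group E and 57.2% in group D. Its ratio to Pdk2 was 2.12 in group E and 4.18 in group D, and Pdk2 was at 21.7 FPKM in group E and 15.8 FPKM in group D. Pdk1 was at 8.46 FPKM in group E and 9.87 FPKM in group D, and Pdk3 was at 21.1 FPKM in group E and 23.9 FPKM in group D, both within 1.2-fold.

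Among the genes counted, the pathways around Pdk4 held none past 2-fold. Of 12 genes of the pyruvate dehydrogenase complex, its kinases and phosphatases and the mitochondrial pyruvate carrier, 9 had a higher and 3 a lower value in group E, with a median change of 0.25. Of 12 fasting and PPAR-alpha target genes 9 were counted, 5 with a higher and 4 with a lower value in group E, with a median of 0.04. Ucp3, a mitochondrial carrier left out because its mean was below 1 FPKM and named after its values were seen, was at 0.799 FPKM in group E and 0.0729 FPKM in group D. Fat cells also express Pdk4, Hsd11b1 and Fkbp5, and adipocyte markers moved widely but not together. Of 13 such markers 10 were counted. More than 2-fold higher in group E were 5 (Adipoq, Plin1, Cidec, Car3 and Adrb3). More than 2-fold lower were 3 (Fabp4, Lpl and Thrsp). Car3 was at 356 FPKM in group E and 0.0310 FPKM in group D, and Adipoq at 63.4 and 0.120 FPKM. Fabp4 went the other way, at 25.6 FPKM in group E and 536 FPKM in group D. Lep, Cfd and Retn were listed at 0 in group D and at 1.53, 274 and 53.4 FPKM in group E. The summed level of the 13 markers was 922 FPKM in group E and 696 FPKM in group D. The part of fat cells in the values of Pdk4, Hsd11b1 and Fkbp5 was not tested.

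The enzymes that set local glucocorticoid levels were nearly level between groups. Hsd11b1, which regenerates active corticosterone, was listed at 8.82 FPKM in group E and 8.73 FPKM in group D, a change of 0.01 (chromosome 1, 193221641 to 193264045), whose sign turned under 4 of the 5 other scalings tried. Hsd11b2, which inactivates it, was at 13.3 FPKM in group E and 15.02 FPKM in group D, a change of −0.17 (chromosome 8, 105518746 to 105523988). Hsd11b2 was the higher gene in both groups, with a ratio to Hsd11b1 of 1.51 in group E and 1.72 in group D. H6pd, which supplies the cofactor that Hsd11b1 needs, was at 13.6 FPKM in group E and 10.7 FPKM in group D, a change of 0.34.

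Of 17 genes of steroid synthesis and metabolism, 10 were counted. Of these, 6 had a higher and 4 a lower value in group E, with a median change of 0.14. The only one past 2-fold was Cyp17a1, a hydroxylase of steroid synthesis, at 1.70 FPKM in group E and 0.576 FPKM in group D. Several enzymes best known from the adrenal gland were at or near 0. Cyp21a1 and Cyp11b2 were listed at 0 in both groups, Cyp11a1, which starts the pathway, was at 0.174 FPKM in group E and 0.157 FPKM in group D, and Cyp11b1, which completes corticosterone, was at 0.0991 FPKM in group E and 0.131 FPKM in group D (these 4 were named after their values were seen).

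The receptors were present in both groups and neither passed 2-fold. Nr3c1 was listed at 39.7 FPKM in group E and 41.3 FPKM in group D, a change of −0.06. Nr3c2 was at 15.6 FPKM in group E and 19.96 FPKM in group D, a change of −0.36, so that Nr3c1 exceeded it by 2.55 times in group E and 2.07 times in group D. Of the 12 receptor, chaperone and cofactor genes counted, 7 had a higher and 5 a lower value in group E, and their median change was 0.24. The only one past 2-fold was Hspa8, the constitutive HSP70 chaperone that loads the receptor onto HSP90, with 341 FPKM in group E and 741 FPKM in group D. Fkbp4, which competes with Fkbp5 for the HSP90 complex and favours the receptor's move to the nucleus, was at 140 FPKM in group E and 82.8 FPKM in group D, a change of 0.76. The ratio of Fkbp4 to Fkbp5 was therefore 2.10 in group E and 1.34 in group D. The inducible HSP90 gene Hsp90aa1 and the co-chaperone Stip1, which were named after their values were seen, were also between 1.5-fold and 2-fold higher, at 148 FPKM and 48.8 FPKM in group E, against 92.7 FPKM and 28.0 FPKM in group D.

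A wider list of 25 other glucocorticoid-induced genes, all high enough to be counted, went in both directions. A higher value in group E was found for 15 and a lower value for 10. Past 2-fold were 2 of the 25 on each side, against 1.59% of all genes counted on the higher side and 1.31% on the lower. Past 1.5-fold were 5 on the higher and 3 on the lower side, against 5.03% and 5.19% of all genes counted. The median change was 0.21, and 0.00 over the 20 genes with a mean of at least 5 FPKM. Past 2-fold on the higher side were Sult1a1, a phenol sulfotransferase, with 18.9 FPKM in group E and 7.64 FPKM in group D, and glutamine synthetase (Glul), with 132 FPKM in group E and 65.9 FPKM in group D, a change of 1.01 at the edge of the threshold. On the lower side were the metallothionein Mt1, with 97.6 FPKM in group E and 474 FPKM in group D, and tyrosine aminotransferase (Tat), a classical liver target of the receptor, with 0.475 FPKM in group E and 1.54 FPKM in group D. Mt2, the neighbour and close copy of Mt1, was at 93.8 FPKM in group E and 66.2 FPKM in group D, a change of 0.50 in the opposite direction. The sources used here do not say how reads matching both metallothioneins were shared. The clock gene Per1 and the transcription factor gene Klf9, named after their values were seen, were at 12.1 and 17.0 FPKM in group E, against 10.4 and 17.3 FPKM in group D.

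**Figure D3:**
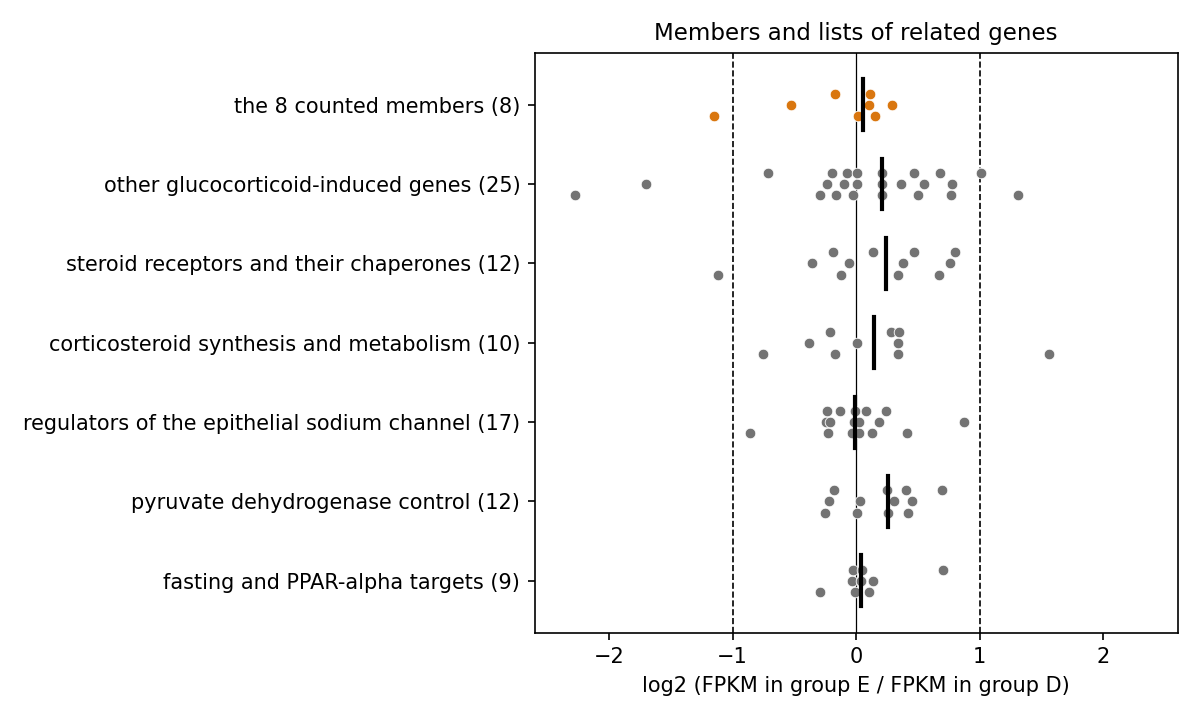
Change between groups (log2 ratio of group E to group D) of the 8 counted members in orange and of each gene of 6 related lists in grey, with the number of genes counted in parentheses. Black bars are medians and dashed lines mark 2-fold. Mt1 and Tat on the left and Glul and Sult1a1 on the right are the genes of the wider glucocorticoid list past 2-fold, and the bars lie between −0.01 and 0.25.

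Close relatives of the members were examined next. Of 14 relatives, the acid-sensing channel genes Asic1, Asic2, Asic3 and Asic5 among them as kin of the ENaC subunits, 11 were counted and none of these passed 2-fold. Tsc22d3 held 24.4% of the summed level of Tsc22d1 to Tsc22d4 in group E and 25.2% in group D, with Tsc22d1 the highest at 95.9 FPKM in group E and 79.6 FPKM in group D. Sgk1 held 84.0% of the summed level of Sgk1 to Sgk3 in group E and 79.7% in group D. Sgk2 was at 14.8 FPKM in group E and 17.5 FPKM in group D. Sgk3, an endosomal relative, was at 1.61 FPKM in group E and 2.92 FPKM in group D, a change of −0.86 and short of 2-fold.

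The ENaC channel was represented almost wholly by its alpha subunit. Scnn1a was listed at 2.70 FPKM in group E and 2.21 FPKM in group D, a change of 0.29 (chromosome 6, 125321340 to 125344942). Scnn1b, the beta subunit, was listed at 0 in group E and at 0.0328 FPKM in group D (chromosome 7, 121865038 to 121918728). Scnn1g, the gamma subunit, was at 0.0197 FPKM in group E and 0.0888 FPKM in group D (chromosome 7, 121734507 to 121768477). Both lay far below 1 FPKM in both groups, and no fold is read from them. Scnn1a thus made up 99.3% of the summed subunit level in group E and 94.8% in group D. With a pseudocount of 0.1 FPKM added to each value, these shares were 92.7% in group E and 87.8% in group D. Since they rest on Scnn1b and Scnn1g values near 0, no difference between the groups is read from them. ENaC needs all 3 subunits for full sodium current, and the 2 genes near 0 are those that aldosterone induces in rat colon.

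Most regulators of the channel were listed above the subunits. Of 17 regulators and sodium transport partners, all counted, 16 were above Scnn1a in group E and 17 in group D. A higher value in group E was found for 8 and a lower value for 9, none passed 2-fold, 14 lay within 1.2-fold, and the median change was −0.01. Prss8 (prostasin), a protease that activates ENaC, was at 9.77 FPKM in group E and 7.35 FPKM in group D. Nedd4l, the ligase that binds the PY motif, was at 14.6 FPKM in group E and 15.9 FPKM in group D. The sodium-hydrogen exchanger Slc9a3 exceeded Scnn1a by 8.95 times in group E and 12.96 times in group D.

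**Figure D4:**
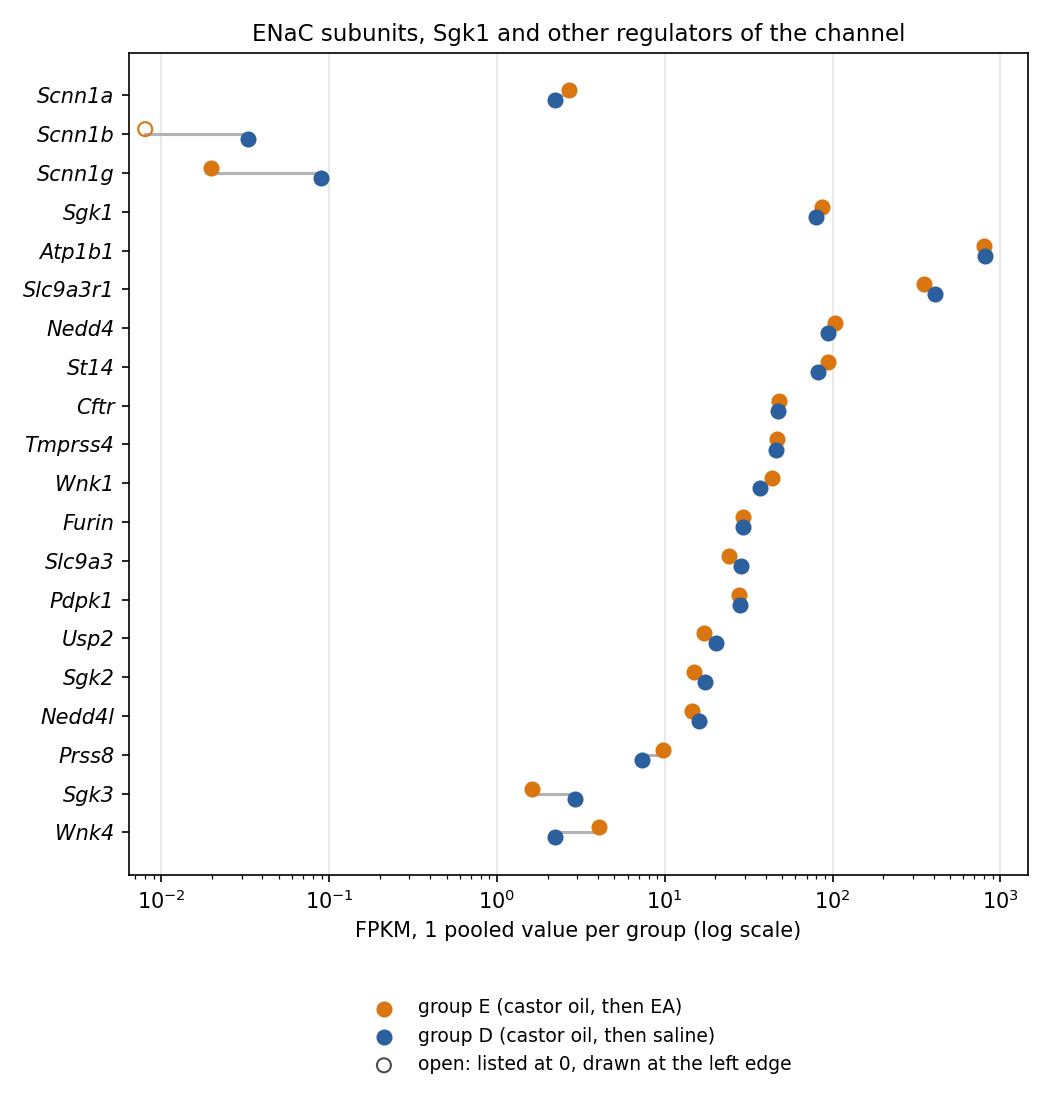
Levels of the 3 ENaC subunit genes, of Sgk1 and of 16 of the 17 other regulators and sodium transport partners in FPKM on a log axis, with 1 pooled value per group and no error bar. Orange points are group E, blue points are group D, and the open point marks Scnn1b, listed at 0 in group E. Scnn1b and Scnn1g lie below 0.1 FPKM, while every regulator drawn lies above 1 FPKM in both groups.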

How the data were processed

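Ileum RNA of group E and group D was sequenced as paired-end reads, which the authors aligned with TopHat2 2.0.12 on a Bowtie2 2.2.3 index and compared with DESeq 1.18.0. The deposited table gives FPKM, 1 value per gene and group from 2 libraries per group. How they were joined and scaled and how many mice a library held are not given in the sources used here, nor is the build. The authors' fold changes, P-values and q-values in that table, and a pathway table, were not used.

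Members and lists were chosen with earlier results of these data known. No test was run, since each group has 1 value. Genes had to average 1 FPKM or more and be at 0 in neither group, with no pseudocount, and were called past 2-fold. Named were all 10 members, up to 4 genes past 2-fold in each list, the receptors, H6pd, close relatives, Prss8, Nedd4l, Actb and Gapdh. Others are marked as named later, apart from cell type markers, Mt2 and Slc9a3, also named after their values were seen. Directions follow the table's group columns, which name D and then E in every row, and the study's text on single genes such as Ccr6, H2-Ob and Cd36 uses E over D too. Its volcano plot caption names the ratio the other way round, and the direction of other single rows was not checked. Positions are the table's with 1 added to each start; of 21519 symbols in the GRCm38 RefSeq annotation, 21267 (98.8%) overlapped the same gene there. Some genes of the lists are not reported here by name. The code was tested on simulated data. Python 3.11.15 was used with pandas 2.3.3, numpy 2.4.6 and matplotlib 3.10.9.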

Additional observations from a re-analysis of the deposited data

How the results depend on the processing

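The count of members more than 2-fold lower in group E was 1 as reported. It was 0 with a pseudocount of 1 FPKM, where Zbtb16 was at −0.91, 0 with a mean of at least 5 FPKM, where Zbtb16 (mean 4.09 FPKM) is left out by construction, 0 at a 4-fold threshold, and 2 with no filter on low values, which adds Scnn1g. Scaling to the sum of all FPKM lowered every change by 0.36 and turned the sign of Fkbp5, Tsc22d3, Sgk1, Hsd11b1 and Scnn1a. The sums were 589890 in group E and 459683 in group D, and 444039 and 432303 without 779 rows of small and ribosomal RNA. With it 90 genes were higher and 549 lower past 2-fold, against 202 and 166 as reported. Centring on the median change, scaling to the upper quartile, the sum without small RNAs and a change relative to Actb turned no member's sign except that of Hsd11b1 under the last 3. No paired analysis was possible because each group has 1 value.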
